A study of Mus musculus with 6 samples.

Results

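The cytosolic ribosomal protein genes were examined in mouse embryonic stem (ES) cells labelled as lacking the G1 cyclins. Members were taken by symbol alone: Rpl or Rps followed by a number, with the endings that mark paralogs, plus Rpsa, Rplp0, Rplp1, Rplp2 and Fau, and without pseudogene symbols. The rule itself uses no measured value, but it was set with earlier results of these data known. The rule gave 86 genes out of 24043 in the expression table, 52 of the large subunit and 34 of the small subunit. Genes that encode ribosomal proteins under other symbols fell outside the rule.

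RNA-seq was done on 3 libraries labelled Q-KO, a name the labels give to ES cells described there as having no G1 cyclins, and on 3 libraries of wild-type ES cells. Cells of both groups grew in medium with LIF, with PD184352, an inhibitor of MEK, and with CHIR99021, an inhibitor of GSK3, and total RNA was extracted with Trizol. The labels do not say which alleles were made, how many clones were used or whether replicates came from separate cultures. A p-value here therefore measures only the spread between these libraries. That spread may be technical among Q-KO libraries, and among wild-type libraries it includes a difference in Y-linked transcripts, given below. Levels are FPKM, fragments per length of gene, scaled to the fragments of the library.

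Each ribosome joins a small subunit, which reads the messenger RNA, to a large subunit, which makes the peptide bond, and every cytosolic ribosomal protein except the stalk proteins P1 and P2 is present in a single copy per ribosome. Ribosomal protein messages are among the most abundant of growing cells, and most begin with a run of pyrimidines, the terminal oligopyrimidine (TOP) motif, through which mTORC1 controls their translation. Mammalian genomes also hold many processed copies of these genes, and some members have paralogs with tissue-restricted expression.

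The start regions below are shown because runs of pyrimidines near the start are common among the members and because the genes whose values are described later differ in them. Each line gives 30 bases in the direction of transcription, from RefSeq promoters on build GRCm38.p6, and capitals mark an unbroken run of C and T near the annotated start.
Rpl4, chr9:64173361-64173390, plus strand: gtgacaagTCTTTCCTTTTCCTgtgggagc
Rpl5, chr5:107900498-107900527, plus strand: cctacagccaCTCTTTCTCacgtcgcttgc
Rps4x, chrX:102189342-102189371, minus strand: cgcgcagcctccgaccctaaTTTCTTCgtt
Rps12, chr10:23787181-23787210, minus strand: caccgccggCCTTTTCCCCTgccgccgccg
Rpl38, chr11:114668568-114668597, plus strand: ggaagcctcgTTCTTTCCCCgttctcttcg
Rps27, chr3:90213631-90213660, minus strand: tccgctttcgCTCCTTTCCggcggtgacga
Rpl22, chr4:152325679-152325708, plus strand: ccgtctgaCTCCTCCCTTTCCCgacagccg
Rpl22l1, chr3:28805499-28805528, plus strand: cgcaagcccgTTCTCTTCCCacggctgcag
Rpl10, chrX:74270836-74270865, plus strand: cgtgagcaggcgtgggagcgTCTCTTTTCC
Rpl10l, chr12:66284394-66284423, minus strand: acagaaatttggCCTCCattttgcggctgg
The run was 14 bases long in Rpl4 and in Rpl22, 9 in Rpl5 and Rps27, 11 in Rps12 and 10 in Rpl38 and Rpl22l1. In Rpl10 it was at least 10, because the run reached the last base searched. In Rpl10l, an intronless copy of Rpl10 known for its role in the testis, the longest run was 5 bases. In Rps4x it was 7 bases. The runs do not all lie where a TOP motif would, at the first bases of the message: the marked run began 2 bases before the annotated start in Rpl38 and Rps27, 1 base after it in Rpl22l1 and 8 bases after it in Rps12. It began 18, 20 and 39 bases before the start in Rpl4, Rpl5 and Rpl22, which puts it wholly upstream, 10 bases before it in Rpl10l, and 40 bases after it in Rps4x and Rpl10.

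RefSeq promoters matched 65 of the 86 members, with 77 promoters in all. Of these, 61 (79.2%) held a run of at least 8 pyrimidines between 60 bases before and 50 bases after the start. Runs were searched in the direction of transcription. The share was 34.3% for the promoters of the other tested genes and 38.6% for all RefSeq promoters of the same length. A run of at least 12 was held by 36.4% of the members' promoters, against 9.35% and 10.2%. The core CCGGAAG of the ETS family of factors, searched on both strands over the 250 bases before and 50 bases after the start, was in 35.1% of the members' promoters, against 18.1% and 8.86%. On the opposite strand that motif reads CTTCCGG, so it can overlap a pyrimidine run. TATAAA, searched in the direction of transcription in the 60 bases before the start, was in 1 member promoter (1.3%), against 1.33% and 2.87%. These are counts of letters. The members with a run of at least 8 numbered 55 and had a median log2 change of -0.20 in Q-KO libraries relative to wild-type, and the other 10 had -0.12.

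All 6 libraries correlated at 0.924 or above (Pearson's r of log2 values over the tested genes). Among the G1 cyclin genes themselves, Ccnd1, Ccnd3 and Ccne2 were called lower in Q-KO libraries (limma, adjusted p of 0.0124, 0.0101 and 0.0182). Ccnd2 was under 1 FPKM in every library, and Ccne1 was listed at 65.3, 73.5 and 87.3 FPKM in libraries labelled Q-KO, against 55.9, 53.9 and 37.5 in wild-type ones, which goes against the label at the level of the transcript. Every direction below is therefore that of the libraries labelled Q-KO, and what is left of each cyclin gene's transcript was not tested. The 10 ES cell markers were all tested and none was called. Of 10 fibroblast markers, 1 passed the filter on low values, and they summed to between 2.21 and 8.68 FPKM in Q-KO libraries and between 2.31 and 3.26 in wild-type libraries. The FPKM of Y-linked transcripts summed to 70.5, 49.9 and 43.2 in Q-KO replicates 1, 2 and 3, and to 0, 0 and 98.6 in wild-type replicates 1, 2 and 3.

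All 86 members were detected in all 6 libraries, with 0 of 516 values listed at 0. This bears on how far the values can be read, because the table lists some abundant genes at 0: 15 genes reached 100 FPKM in 1 library and were listed at 0 in another, and none of them was a member. The elongation factor gene Eef1a1, whose message also carries the TOP motif, was among the 15. Mean levels over the 6 libraries ran from 1.76 FPKM for Rpl3l, a paralog of Rpl3 known from striated muscle, to 5404 FPKM for Rplp1, which encodes the stalk protein P1. The median member stood at 1533 FPKM. A mean of at least 1000 FPKM was reached by 62 members, and 7 were under 200 FPKM. Members made up 34 of the 50 most abundant genes and 67 of the 100 most abundant.

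In total, the members took 22.2%, 21.7% and 26.9% of all FPKM in Q-KO replicates 1, 2 and 3, against 25%, 27% and 28.2% in wild-type replicates 1, 2 and 3. The group means were 23.6% ± 2.92 in Q-KO and 26.8% ± 1.6 in wild-type (SD, n = 3 each), and the groups overlapped. Summed member FPKM was 116300, 117800 and 172900 in the Q-KO libraries, against 140500, 152300 and 159400 in the wild-type ones. Q-KO replicates 1 and 2 lay below every wild-type library in this sum and Q-KO replicate 3 lay above every one. FPKM is relative to the library's total, and in a bulk sample fewer cells of a type and less RNA per cell cannot be told apart.

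No ribosomal protein gene passed the test between Q-KO and wild-type cells. With limma on log2(FPKM + 1) over 11573 genes and Benjamini-Hochberg adjustment, 0 of 86 members were called at an adjusted p below 0.05, where 4.06% of all tested genes were called, 3.04% higher and 1.02% lower. At an unadjusted p below 0.05 there were 5 members (5.81%), against 21.5% of all tested genes. Of these 5, Rpl4, Rps4x and Rpl5 were lower in Q-KO libraries and Rpl30 and Rpl10l were higher. The groups did not overlap for 4 members, with Rpl4, Rps4x and Rpl6 lower and Rpl30 higher in Q-KO, and over all tested genes 27.7% did not overlap, 9.44% lower and 18.2% higher. The smallest adjusted p of any member was 0.134, for Rpl30.

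Below the threshold, the members leaned to lower values in Q-KO cells. The fitted log2 change, Q-KO minus wild-type, had a median of -0.17 over the members, -0.20 over the large subunit and -0.14 over the small subunit, and 0.07 over all tested genes. It was below 0 for 67 of the 86 members (77.9%), for 42 of 52 large-subunit and 25 of 34 small-subunit members, and for 40.7% of all tested genes. Among the 309 other genes averaging 200 FPKM or more the median was 0.04. The members' median was -0.07 after quantile normalization, where that of the small subunit was -0.004, and -0.09 and -0.08 when Q-KO replicate 1 or 2 was left out. The same median was -0.26 with median-of-ratios scaling, -0.28 with the length trend removed and -0.36 without Q-KO replicate 3. The members share libraries and are not independent of each other, so these counts describe the 6 libraries.

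The 3 Q-KO libraries did not behave alike. Against the wild-type mean, the median member differed by -0.38 and -0.36 on the log2 scale in Q-KO replicates 1 and 2 and by 0.19 in Q-KO replicate 3, while the wild-type libraries stood at -0.09, 0.02 and 0.06. Over all tested genes the same medians were 0.05, 0.11 and 0.07 in Q-KO, and within 0.011 of 0 in each wild-type library. Q-KO replicate 3 was the highest Q-KO library for 84 of 86 members, the exceptions being Rps27 and Rpl26. It was also the highest Q-KO library for 40% of all tested genes and for 78.3% of the other genes of at least 200 FPKM. Among those of them with transcripts of at most 1000 bases it was the highest for 85.1%. Its level over the mean of the other Q-KO libraries had a median of 1.47 across members, 0.993 across all tested genes, 1.24 across the other genes of at least 200 FPKM and 1.33 across those of them with transcripts of at most 1000 bases. What depth or RNA quality contribute to this library was not tested.

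**Figure D1:**
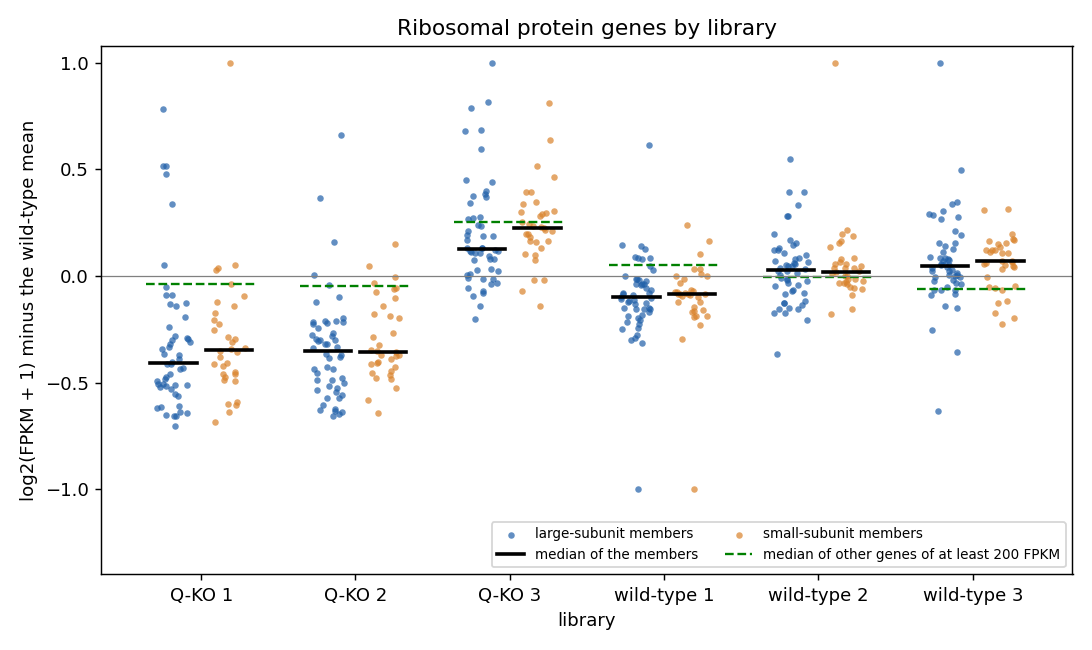
Each point is 1 member in 1 library, as log2(FPKM + 1) minus the mean of the 3 wild-type libraries, with large-subunit members on the left and small-subunit members on the right of each library, black bars at their medians and green dashed lines at the median of the other genes of at least 200 FPKM; 6 points beyond 1 in either direction are drawn at 1 or -1. The members lie mostly below 0 in Q-KO replicates 1 and 2 and mostly above 0 in Q-KO replicate 3.

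Q-KO replicates 1 and 2 were both below all 3 wild-type libraries for 66 members (76.7%), against 15.1% of all tested genes and 24.6% of the other genes of at least 200 FPKM. In Q-KO replicate 3, by contrast, 49 members (57%) lay above the highest wild-type library, against 36.3% of all tested genes, and 3 (3.49%) lay below the lowest, against 26.1%. Of the other genes of at least 200 FPKM, 53.1% lay above and 12.9% below. For those of them with transcripts of at most 1000 bases the shares were 66.7% and 10.3%. The members' share above the highest wild-type library was thus near that of other abundant genes. Q-KO replicates 1 and 2 lay within 10% of each other for 71 of the 86 members and for 41.4% of all tested genes. The median gene of these sets stood at 1533 and 10.6 FPKM, and this share was not computed for other abundant genes. Without Q-KO replicate 3, 0 members were called, the smallest adjusted p was 0.0624 and the median log2 change was -0.36. In that fit 52 members had an unadjusted p below 0.05, every one of them lower, against 19.8% of all tested genes, and 85 genes (0.734%) were called in all. Without Q-KO replicate 1 or 2 instead, 1 and 2 members had such a p, 0 of them lower. Without wild-type replicate 1, 2 or 3 there were 3, 2 and 1. The count of 52 thus depends on which library is left out, and the members share libraries. Without Q-KO replicate 3 and wild-type replicate 3 together, Rpl4, Rps4x and Rpl11 were called, all lower (adjusted p of 0.0443, 0.0489 and 0.0495, limma), where 1.29% of tested genes were called lower. Leaving out both of these libraries together was chosen after the values were seen.

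**Figure D2:**
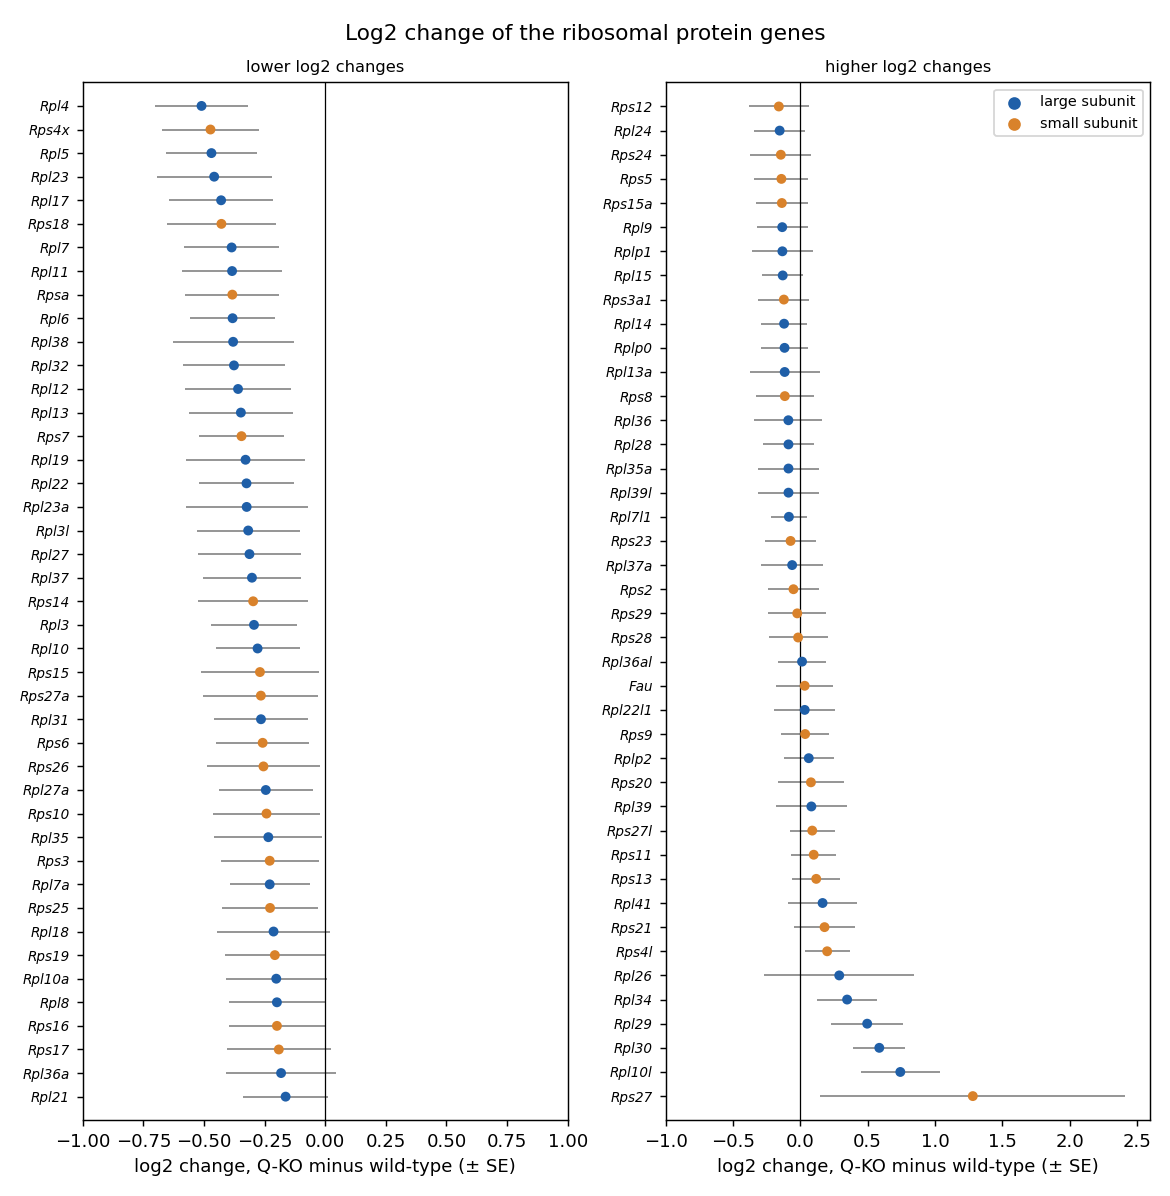
Log2 change of 85 of the 86 members, Q-KO minus wild-type on the log2(FPKM + 1) scale, with the standard error of the limma fit as a line, in order of size and split over 2 panels whose axes differ in range. Most members sit between -0.51 and 0, and no adjusted p was below 0.05.

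In the large subunit, Rpl4, Rpl5, Rpl23 and Rpl17 were among the members with the lowest log2 changes. Rpl4, whose protein lines the exit tunnel, had 1733, 1833 and 2450 FPKM in Q-KO libraries, against 2637, 2966 and 2874 FPKM in wild-type libraries. Every Q-KO value was below every wild-type value, and the log2 change was -0.51 (SE 0.19, adjusted p 0.178, limma). Rpl6, named here after its values were seen, also did not overlap, with 928, 905 and 1239 FPKM in Q-KO and 1251, 1341 and 1373 FPKM in wild-type. Its log2 change was -0.38 (SE 0.17, adjusted p 0.252, limma).

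Rpl5 and Rpl11 are the proteins that, with a small ribosomal RNA, form the particle that can bind MDM2 and stabilise p53. Rpl5 had 755, 759 and 1066 FPKM in Q-KO, against 1045, 1298 and 1196 FPKM in wild-type. Its groups overlapped only through Q-KO replicate 3, and its log2 change was -0.47 (SE 0.19, adjusted p 0.202, limma). Rpl11 had 1122, 1157 and 1761 FPKM in Q-KO, against 1693, 1664 and 1805 FPKM in wild-type. Here too Q-KO replicates 1 and 2 stood below the wild-type range and Q-KO replicate 3 inside it, with a log2 change of -0.38 (SE 0.21, adjusted p 0.329, limma).

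Rpl23, a protein of the large subunit that also binds MDM2, had 1097, 1111 and 1632 FPKM in Q-KO and 1391, 1688 and 2196 FPKM in wild-type. Wild-type replicate 3 was far above the other wild-type libraries, and without it the log2 change was -0.29 in place of -0.46. Rpl17, which lies near the mouth of the exit tunnel, had a log2 change of -0.43 (SE 0.22, adjusted p 0.296, limma).

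The stalk recruits the elongation factors and is built from Rplp0, Rplp1 and Rplp2. Rplp1, the highest member, had 4329, 4556 and 6747 FPKM in Q-KO, against 5517, 5650 and 5624 FPKM in wild-type. The wild-type libraries lay within a narrow range, with Q-KO replicates 1 and 2 below it and Q-KO replicate 3 above it (log2 change -0.13, SE 0.23). Rplp0 had a log2 change of -0.12 (SE 0.17) and Rplp2 one of 0.06 (SE 0.18), so none of the stalk genes differed beyond the spread of the libraries.

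Rpl38, Rpl13a and Rpl41 also overlapped between the groups. Rpl38, required in mouse for the translation of some Hox messages, had 3199, 2890 and 4631 FPKM in Q-KO and 3761, 4570 and 5486 FPKM in wild-type, a log2 change of -0.38 (SE 0.25, adjusted p 0.423, limma). It was called only after quantile normalization, where its log2 change was -0.43 and that of Rpl4, also called, was -0.36 (adjusted p of 0.0482 and 0.0486, limma), with 1.81% of all tested genes called lower. Rpl13a, part of an interferon-responsive inhibitor of translation, had a log2 change of -0.12 (SE 0.26). Rpl41, which encodes a very short basic peptide, had 3325, 3562 and 5879 FPKM in Q-KO and 3567, 3383 and 4087 FPKM in wild-type (log2 change 0.17, SE 0.25).

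On the other side, Rpl30 was the 1 member whose Q-KO values all lay above the wild-type ones. It had 72, 46.3 and 73.7 FPKM in Q-KO, against 44.1, 43 and 37.4 FPKM in wild-type, a log2 change of 0.59 (SE 0.19, adjusted p 0.134, limma). Rpl29, whose protein is also found at the cell surface, had 355, 363 and 486 FPKM in Q-KO and 431, 218 and 236 FPKM in wild-type (log2 change 0.50, SE 0.27). Wild-type replicate 1 lay inside the Q-KO range for Rpl29. Rpl30, Rpl34 and Rpl26 had means far below those of most members, and all 3 genes are known to have processed copies in the genome, so their values are uncertain.

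The small subunit gave a similar picture with fewer members at the low end. Rps4x, the X-linked Rps4 gene, had 1848, 1842 and 2604 FPKM in Q-KO, against 2686, 3195 and 2764 FPKM in wild-type. Its groups did not overlap, and its log2 change was -0.47 (SE 0.20, adjusted p 0.224, limma). Rpsa, whose protein doubles as the laminin receptor precursor, had 1021, 1073 and 1525 FPKM in Q-KO and 1454, 1567 and 1626 FPKM in wild-type, with Q-KO replicate 3 inside the wild-type range (log2 change -0.38, SE 0.19).

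Rps6, the substrate of the S6 kinases, had 764, 777 and 1122 FPKM in Q-KO and 980, 1003 and 1160 FPKM in wild-type (log2 change -0.26, SE 0.19). Rps19, the gene most often mutated in human Diamond-Blackfan anaemia, had a log2 change of -0.21 (SE 0.21). The ubiquitin fusion gene Rps27a had -0.27 (SE 0.24) and Fau, which encodes a ubiquitin-like fusion, had 0.03 (SE 0.21). Of these only Rps6 and Rps27a kept every Q-KO replicate 1 and 2 value below all wild-type values while Q-KO replicate 3 stayed inside the wild-type range.

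Rps20 and Rps29, among the 5 most abundant members, had log2 changes near 0. Rps20 had 3759, 3944 and 6072 FPKM in Q-KO and 3622, 4410 and 4778 FPKM in wild-type (log2 change 0.08, SE 0.25). Rps29 had 3413, 3436 and 4989 FPKM in Q-KO and 3740, 3856 and 4252 FPKM in wild-type (log2 change -0.02, SE 0.22). For both, Q-KO replicate 3 was the highest of all 6 libraries. The 48 members outside the naming rule had log2 changes from -0.43 to 0.20, with no adjusted p below 0.252 (limma).

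A ratio taken within each library does not depend on how high the family as a whole stood in it. The summed FPKM of large-subunit members over that of small-subunit members was 1.16, 1.17 and 1.19 in Q-KO replicates 1, 2 and 3, against 1.23, 1.22 and 1.26 in wild-type replicates 1, 2 and 3. The means were 1.17 ± 0.0136 in Q-KO and 1.24 ± 0.0213 in wild-type (SD, n = 3 each), and the groups did not overlap. Q-KO replicate 3 was on the Q-KO side here. An exact two-sided permutation test of 3 against 3 libraries cannot go below a p of 0.10, and none is given because the ratio was chosen with earlier results of these data known.

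The order held in sums without Rps27, without paralogs, without the 5 most abundant members and without the members on chromosomes 8 and 11. In the last of these the means were 1.01 ± 0.0126 in Q-KO and 1.05 ± 0.0149 in wild-type, and Q-KO over wild-type was 0.966 in place of 0.946. With the median member of each subunit in place of the sum, the ratios overlapped, at 0.738, 0.713 and 0.734 in Q-KO and 0.738, 0.771 and 0.718 in wild-type.

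Set against the median member of its own library, a gene's place within the family can be compared across libraries. On this scale 10 of 86 members lay lower in every Q-KO library than in any wild-type one and 18 lay higher. Of all tested genes, centred on their own median, 15.3% were lower and 12.3% were higher. Centring removed the family's own movement between libraries from the members only, so these shares are not a like comparison. Rpl4 (-0.29), Rps4x (-0.25) and Rpl5 (-0.25) had the lowest differences in log2, Q-KO minus wild-type. Rpl10l (0.97), Rpl30 (0.81), Rpl29 (0.72), Rpl34 (0.57) and Rps4l (0.42) had the highest among those that did not overlap, and Rps21 (0.40) and Rpl41 (0.39) came next. Rpl4 stood 0.46, 0.54 and 0.49 above the median member in Q-KO libraries and 0.75, 0.84 and 0.76 above it in wild-type libraries.

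Among the 8 pairs in which both genes are members, 3 had a ratio of copy to parent that was higher in every Q-KO library than in any wild-type one. The share among pairs of other genes was not computed. Rpl10l over its X-linked parent Rpl10 was 0.232, 0.244 and 0.243 in Q-KO, against 0.126, 0.169 and 0.0764 in wild-type. Rpl10l itself had 217, 240 and 315 FPKM in Q-KO and 161, 222 and 97 FPKM in wild-type, while Rpl10 had 934, 983 and 1295 FPKM in Q-KO and 1271, 1314 and 1270 FPKM in wild-type. The ratio was close to constant among Q-KO libraries and varied more than 2-fold among wild-type ones, the lowest being wild-type replicate 3. Reads could be split between Rpl10 and its copy, so both are uncertain. The sum of both was 1150, 1222 and 1610 FPKM in Q-KO and 1431, 1536 and 1367 FPKM in wild-type, and the groups overlapped.

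The log2 change of Rpl10l was 0.74 (SE 0.29, adjusted p 0.192, limma), 0.43 without wild-type replicate 3 and 0.27 without replicate 3 of both groups. With a term for the presence of Y-linked transcripts it was 1.38, but Q-KO is then set against wild-type replicate 3 alone, the library where Rpl10l was lowest. The adjusted p of that fit (0.0232, limma, with 5.73% of all tested genes past the threshold and higher) assumes that this library varies like the others and is not read as a call. Rpl10 had a log2 change of -0.28 (SE 0.17).

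**Figure D3:**
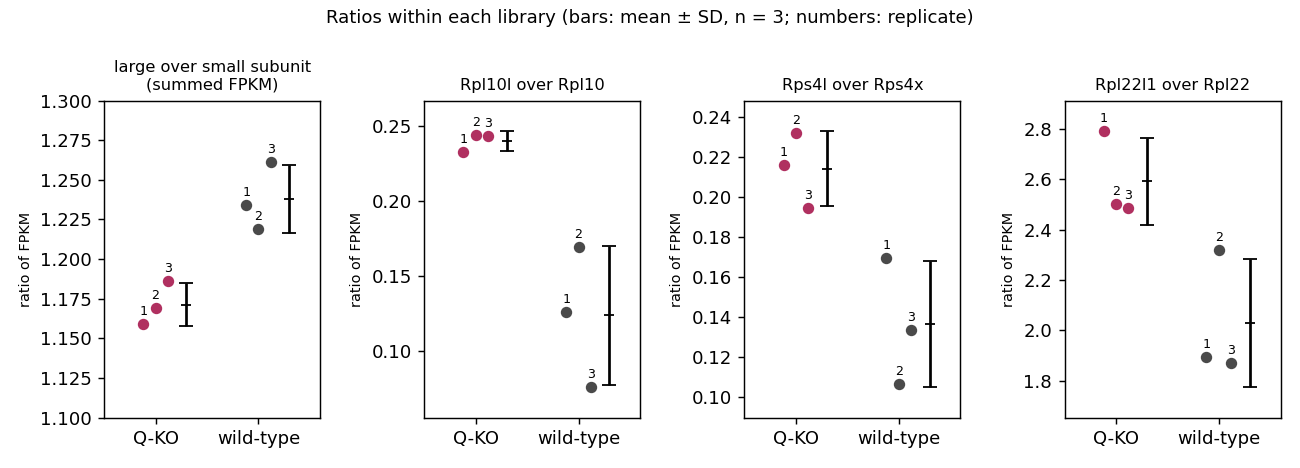
Ratios of FPKM within each library: large-subunit over small-subunit members (summed), Rpl10l over Rpl10, Rps4l over Rps4x and Rpl22l1 over Rpl22, with the replicate number above each point and the mean ± SD of 3 libraries beside the points; the axes do not start at 0. The Q-KO libraries lie below the wild-type ones in the first panel and above them in the other panels.

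Rps4l over Rps4x was 0.216, 0.232 and 0.195 in Q-KO, against 0.169, 0.107 and 0.133 in wild-type. Rps4l matched the symbol rule but is annotated as a transcribed pseudogene in RefSeq, and it is named here after its values were seen. Reads could be split between gene and copy, so both are uncertain, and the sum of both was 2248, 2270 and 3111 FPKM in Q-KO and 3141, 3536 and 3132 FPKM in wild-type. That sum still did not overlap, with Q-KO lower.

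Rpl22 and Rpl22l1 encode paralogs of which mouse Rpl22 protein is known to repress the Rpl22l1 message. Rpl22l1 was the more abundant in every library, at 2.79, 2.5 and 2.49 times Rpl22 in Q-KO and 1.9, 2.32 and 1.87 times in wild-type. Rpl22 had 217, 214 and 328 FPKM in Q-KO and 279, 356 and 302 FPKM in wild-type (log2 change -0.32, SE 0.20). Rpl22l1 had 605, 535 and 815 FPKM in Q-KO and 528, 826 and 565 FPKM in wild-type (log2 change 0.03, SE 0.23). Neither gene differed by itself beyond the spread of the libraries.

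In the remaining paralog pairs the ratios overlapped. Rpl39l over Rpl39, the copy and parent of an exit tunnel protein, was 0.0334, 0.0252 and 0.0212 in Q-KO and 0.0336, 0.0319 and 0.0237 in wild-type. Rpl36al over Rpl36a averaged 0.528 ± 0.0402 in Q-KO and 0.462 ± 0.0517 in wild-type, and Rpl7l1 over Rpl7 averaged 0.046 ± 0.00408 in Q-KO and 0.0376 ± 0.00596 in wild-type (SD, n = 3 each). Rpl3l stayed near 0.001 of Rpl3 in every library, with Rpl3l at 0.924, 1.46 and 2.05 FPKM in Q-KO and 1.81, 2.18 and 2.13 FPKM in wild-type. Rps27l, which encodes a p53-inducible paralog of Rps27, had 812, 765 and 977 FPKM in Q-KO and 696, 874 and 828 FPKM in wild-type (log2 change 0.09, SE 0.17). Over the 8 paralogs and copies the median log2 change was 0.02, against -0.20 over the other 78 members.

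The X-linked members were Rpl10, Rpl36a, Rpl39 and Rps4x, and they did not move as a group. Rpl36a had a log2 change of -0.18 (SE 0.23) and Rpl39 one of 0.08 (SE 0.26), against -0.28 for Rpl10 and -0.47 for Rps4x. The wild-type libraries differed among themselves in Y-linked transcripts, as given above, and the part of that difference in these values was not tested.

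For Rps27 and Rpl34 the table listed a close copy above the gene itself in every library. Rps27 was listed at 1330, 98.6 and 222 FPKM in Q-KO, against 27.7, 453 and 157 FPKM in wild-type, the widest spread of any member. Rps27rt, an expressed retrogene of Rps27, had 1334, 2400 and 3520 FPKM in Q-KO and 2764, 2906 and 3163 FPKM in wild-type. Added together they gave 2664, 2499 and 3742 FPKM in Q-KO and 2792, 3359 and 3320 FPKM in wild-type, or 2969 ± 675 in Q-KO and 3157 ± 317 in wild-type (SD, n = 3 each).

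The sum thus followed the order of the other members, with Q-KO replicates 1 and 2 low and Q-KO replicate 3 high. The log2 change of 1.28 fitted for Rps27 alone (SE 1.13, adjusted p 0.555, limma) was not called. Rpl34 had 45.6, 29.8 and 52.8 FPKM in Q-KO and 27.2, 36.5 and 34.3 FPKM in wild-type, whereas its copy Rpl34-ps1 was listed at 1288 FPKM or more in every library. The sum of both was 1655, 1608 and 2368 FPKM in Q-KO and 1887, 2171 and 1322 FPKM in wild-type. Rpl26 was listed at 9.24, 5.67 and 8.78 FPKM in Q-KO and 1.67, 8.02 and 14.3 FPKM in wild-type, levels far under those of the other core members.

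**Figure D4:**
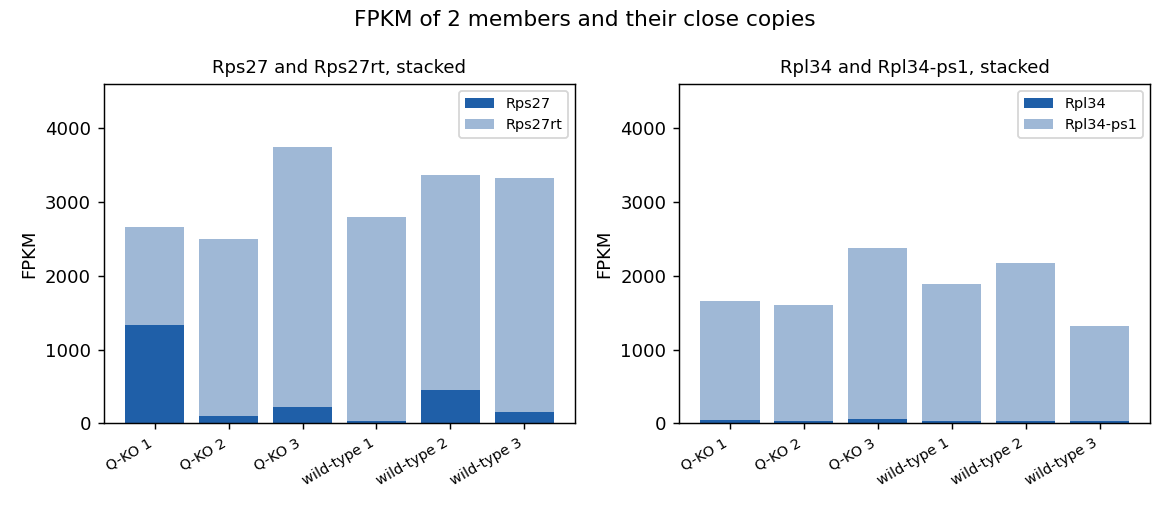
Stacked bars of FPKM in each library for Rps27 (dark) with Rps27rt (light) and for Rpl34 (dark) with Rpl34-ps1 (light), on the same axis from 0. Rps27 takes about as much as its copy in Q-KO replicate 1 and a small part in the other libraries, while the stacked height varies less.

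Copies did not take an uneven share everywhere. Rpl14-ps1 over Rpl14 was 0.248, 0.242 and 0.253 in Q-KO and 0.25, 0.243 and 0.262 in wild-type, so that pair kept 1 ratio in every library. Rps15a-ps6 over Rps15a, named after its values were seen, was 1.09, 1.05 and 1.13 in Q-KO and 1.03, 0.828 and 0.972 in wild-type, higher in every Q-KO library. Whether strand was used in counting is not stated, and reads of overlapping or antisense genes could not be told apart from those of members.

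Members on chromosomes 8 and 11 stood higher in wild-type replicate 3 than in the other wild-type libraries. For the 9 members on chromosomes 8 and 11 (RefSeq), the log2 level in wild-type replicate 3 minus the mean of the other wild-type libraries had a median of 0.46, and wild-type replicate 3 was the highest wild-type library for 9 of 9. For the other 77 members the median was 0.07 and 33 were highest there. In genes that are no members the medians were 0.25 on chromosomes 8 and 11 and -0.05 elsewhere. They included Rpl13 on chromosome 8 and Rpl19, Rpl23, Rpl23a, Rpl26, Rpl27, Rpl38 and Rps27a on chromosome 11, and 8 of the 9 belong to the large subunit.

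**Figure D5:**
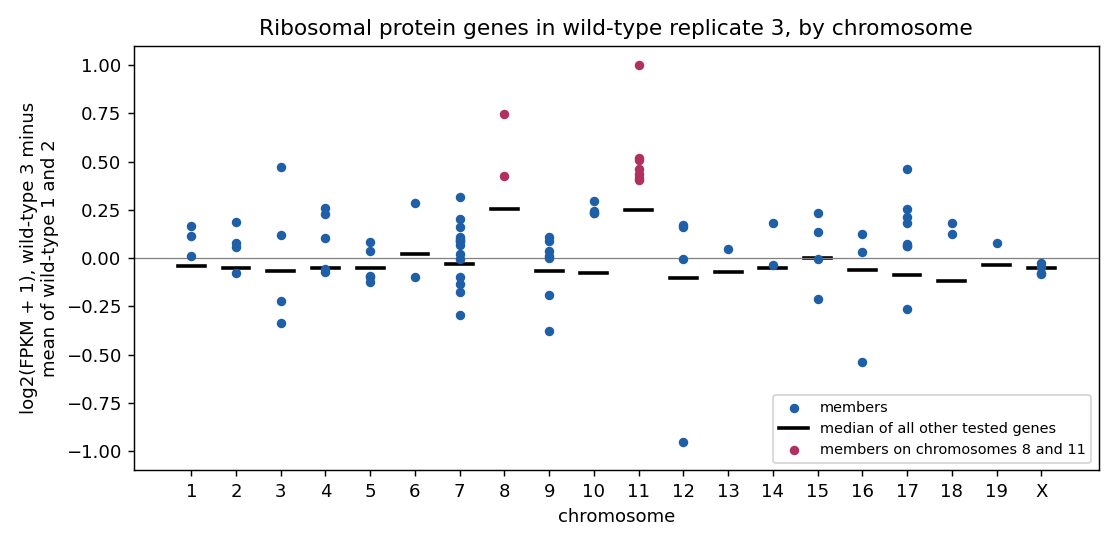
Each point is 1 member, plotted by chromosome as log2(FPKM + 1) in wild-type replicate 3 minus the mean of wild-type replicates 1 and 2, with members on chromosomes 8 and 11 in red and black bars at the median of all other tested genes of the chromosome; Rpl26 lies above 1 and is drawn at 1. All points on chromosomes 8 and 11 are above 0, and the medians of the other genes there are the highest of any chromosome.

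The fitted log2 change of these 9 members had a median of -0.33, against -0.14 for the other 77. Without wild-type replicate 3 the log2 change was -0.11 in place of -0.27 for Rps27a, -0.16 in place of -0.33 for Rpl19 and 0.84 in place of 0.29 for Rpl26. Gnb2l1, which encodes the ribosome-bound protein RACK1 and lies on chromosome 11, had 1335, 1482 and 1965 FPKM in Q-KO and 1918, 2013 and 2677 FPKM in wild-type (log2 change -0.47, SE 0.22, adjusted p 0.256, limma). Wild-type replicate 3 was the highest of all 6 libraries for Gnb2l1.

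What else the members share was looked at as a description. The 30 members that hold a snoRNA gene within their bounds had a median log2 change of -0.24, against -0.14 for the other 56. Over the 86 members, the log2 change correlated with log10 transcript length at r = -0.27 and with log2 mean level at r = -0.33, across genes that share the same 6 libraries and are not independent. The median transcript length was 713 bases for members and 2014 bases for all tested genes.

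Other genes that make ribosomes or act on them were read from the same fit, in which 4.06% of all tested genes were called and 21.5% had an unadjusted p below 0.05. Of 53 tested genes of ribosome biogenesis and RNA polymerase I, 0 were called and 6 had an unadjusted p below 0.05, with a median log2 change of -0.03. The most abundant was Npm1, a nucleolar chaperone, at 2845, 2505 and 2906 FPKM in Q-KO and 3405, 3657 and 4339 FPKM in wild-type, which did not overlap (log2 change -0.46, SE 0.18, adjusted p 0.199, limma). Of 12 genes of mTORC1 and S6 kinase, 0 were called and 1 had an unadjusted p below 0.05, with a median of 0.04. Their most abundant member Eif4ebp1, the inhibitor of cap binding, had 286, 304 and 420 FPKM in Q-KO and 356, 315 and 401 FPKM in wild-type.

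Among 32 tested translation initiation factors, 1 was called lower, where 1.02% of all tested genes were, and 0 higher, and the median was -0.02. The called gene was Eif4b, a cofactor of the helicase eIF4A and an S6 kinase substrate, with 142, 134 and 117 FPKM in Q-KO, against 241, 190 and 214 FPKM in wild-type. It fell by 0.71 on the log2 scale (SE 0.14, adjusted p 0.037, limma), and Q-KO replicate 3 was its lowest library, unlike for the members. The call was lost when any library other than wild-type replicate 2 was left out, with log2 changes from -0.80 to -0.62, and also with no filter on low values, with the replicate number as a block and with the Y-linked term. Of 17 other genes with TOP messages, Eif4b fell and Eef1a1 was called higher, at 5333, 5550 and 5903 FPKM in Q-KO and listed at 0 in each wild-type library, where no fold can be given. With listed zeros set to missing, Eef1a1 has no wild-type value and its call is lost. The median of these 17 was -0.11.

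The mitochondrial ribosomal proteins, which build a separate ribosome, gave 0 calls among 77 tested genes and 13 genes with an unadjusted p below 0.05, with a median log2 change of 0.12. Under median-of-ratios scaling, quantile normalization, the robust fit, the removed length trend and without wild-type replicate 3, Mrps31 alone among them was called lower (adjusted p from 0.0412 to 0.0474, limma), named here after its values were seen. Against the wild-type mean their median stood at 0.04, 0.04 and 0.34 in Q-KO replicates 1, 2 and 3 and at 0.03, -0.05 and 0.00 in wild-type replicates 1, 2 and 3. Q-KO replicate 3 was thus the highest Q-KO library for 66 of 77 of them, with a median ratio of 1.26 over the other Q-KO libraries. Q-KO replicates 1 and 2 lay near the wild-type mean for these genes, and below it for the cytosolic ones, a difference that was not tested. The most abundant, Mrpl42, had 181, 166 and 221 FPKM in Q-KO and 194, 215 and 266 FPKM in wild-type (log2 change -0.25, SE 0.17).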

How the data were processed

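RNA-seq was done on 3 Q-KO and 3 wild-type libraries of mouse ES cells, grouped by their titles. The authors deposited 1 table with an FPKM value for each gene and library. The submitters' processing notes name the tools CASAVA, bcl2fastq 2.16, STAR 2.5 and Cufflinks and the build mm9, without roles. Neither annotation nor strandedness nor depth is given in the sources used here, so no counting interval was computed. 1 stray header row was dropped, which left 24043 genes, and no sample column was unmapped.

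A mean of 1 FPKM or more over the 6 libraries was required, which 11573 genes and all 86 members passed, and their values entered the fit as log2(FPKM + 1). limma 3.58.1 in R 4.3.3 (eBayes with an intensity trend) compared the groups, two-sided, with Benjamini-Hochberg adjustment over all tested genes and a threshold of 0.05. The fit was tested on simulated data in which genes varied independently. That test does not cover a shift shared by many genes of a library. Log2 changes are Q-KO minus wild-type and, because of the added 1, are understated for genes of low level. Chromosomes, snoRNA positions and promoters came from RefSeq tables on GRCm38.p6, and transcript lengths from GENCODE vM21, matched by symbol.

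Named members were those of the 6 largest changes in each direction, the 5 highest and 5 lowest means, 7 paralog pairs, the X-linked members and those of special role. For each other list, called genes or the most abundant gene were named. Genes withheld from the text are not reported here by name, and still count in the totals. The members, lists, alternatives and this rule were chosen with earlier results of these data known. Alternatives were the pseudocount, filters, scalings, variance models, a length trend, a replicate block, leaving out libraries and, added after seeing the data, a term for Y-linked transcripts, leaving out replicate 3 of both groups and other sums.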

Additional observations from a re-analysis of the deposited data

How the results depend on the processing

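The count of 0 members called held under 15 of the 18 other settings, and was 2 after quantile normalization, 1 with the term for Y-linked transcripts, which sets Q-KO against a lone wild-type library and is no test of the groups, and 3 without replicate 3 of both groups. Over all genes, 266 were called at a mean of at least 5 FPKM and 894 with the Y-linked term, in place of 470, and 28 to 566 when 1 library was left out, the lowest without Q-KO replicate 2. The median log2 change stayed below 0 throughout, with ranges over left-out libraries of -0.357 to -0.083 for all members, -0.382 to -0.091 for the large and -0.341 to -0.055 for the small subunit. Large over small subunit, Q-KO over wild-type, was 0.946, 0.939 to 0.955 with 1 library left out, 0.966 without chromosomes 8 and 11 and 0.981 with medians. The cause of these shifts was not tested.

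For the 38 members that the rule picked, 50 of 683 log2 changes had the opposite sign. With the Y-linked term these were Rpl26 at -0.802, Rps20 at -0.092, Rpl39l at 0.27 and Fau at -0.02. With median-of-ratios scaling they were Rps20 at -0.008, Rpl22l1 at -0.055, Rpl39 at -0.005, Rpl36al at -0.074, Rplp2 at -0.025 and Fau at -0.055. Without replicate 3 of both groups they were Rps20 at -0.054, Rpl41 at -0.014, Rpl22l1 at -0.214, Rpl39 at -0.199, Rpl36al at -0.155, Rplp2 at -0.034 and Fau at -0.158, while Rpl39l (-0.369) and Rpl13a (-0.41) kept theirs. After quantile normalization they were Rpl22l1 at -0.086, Rpl36a at 0.019, Rplp0 at 0.056 and Rpl13a at 0.005. With the length trend removed they were Rpl22l1 at -0.075, Rpl39 at -0.018, Rps27l at -0.022, Rpl36al at -0.081, Rplp2 at -0.053 and Fau at -0.078. With 1 library left out, signs turned within -0.423 to 0.835 for Rpl26, -0.14 to 0.206 for Rps20 and -0.092 to 0.319 for Rpl41. The range was -0.203 to 0.07 for Rps29, -0.266 to 0.109 for Rpl39l, -0.139 to 0.231 for Rpl22l1 and -0.173 to 0.233 for Rpl39. For Rps27l it was -0.014 to 0.162, for Rpl36al -0.152 to 0.127 and for Rplp2 -0.042 to 0.139. Fau turned within -0.184 to 0.162 and Rpl13a within -0.366 to 0.087. Eif4ebp1, which is no member and not among the 50, had -0.271 to 0.006.

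Deviations from the group means did not correlate between equal replicate numbers (r of -0.0282, 0.0121 and 0.0218 across genes). Whether equal numbers share a day or a culture is not in the labels and cannot be told from these values. With the replicate block 0 members and 333 genes were called. Depth is unknown, and genes with close copies are limited by how fragments were assigned.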
